A study of Mus musculus with 14 samples.

Results

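The genes of leukocyte adhesion described here number 9: Selp, its counter-receptor gene Selplg, the cell surface ligands Icam1, Icam2 and Vcam1, and the integrin subunits Itga4, Itgb1, Itgal and Itgb2. All probe sets to which the probe annotation gives a single symbol of this set were taken, which made 19 probe sets for the 9 genes, among 12393 genes with a single symbol. The arrays held RNA of sorted hematopoietic stem cells (HSC) or of whole bone marrow (WBM). There were 14 of them in 7 groups, and the 2 arrays of a group are called A and B. HSC were side population cells, which pump out the Hoechst dye, and were in addition c-Kit+, Sca-1+ and negative for lineage markers. HSC came from wild-type (WT) C57Bl/6 mice of 2, 6, 12 and 21 mo and from 12-mo-old mice with a p53+/m or a p53+/- genotype. The m allele of p53 encodes a truncated protein that raises p53 activity, and p53+/- mice keep 1 functional copy. The p53 mice had been back-crossed onto C57Bl/6. In comparisons with WT, genotype and any remaining strain background cannot be told apart. WBM came from WT mice of 2 mo. All mice were male. A characteristics field of the labels gives 2 mo for every sample, and the ages used here are those of the sample titles. The HSC of 2 to 5 mice were pooled for an array and their RNA amplified in 2 rounds by in vitro transcription. The p-values therefore measure the spread between pools, some of which may be technical. Where a level is lower, fewer cells of a type and less RNA per cell cannot be told apart.

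Leukocytes leave the blood in steps. Selectins catch passing cells by sugars on ligands such as PSGL-1, the product of Selplg, and integrins, once activated, bind members of the immunoglobulin superfamily on the opposing cell. LFA-1, made of the products of Itgal and Itgb2, binds ICAM-1 and ICAM-2, and VLA-4, made of the products of Itga4 and Itgb1, binds VCAM-1. HSC use the same machinery when they home to the marrow and are held in it, and VLA-4 with VCAM-1 is the classical pair for this. P-selectin itself is best known from the granules of platelets and of endothelial cells.

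The table of promoters used here, from RefSeq with the mouse build GRCm38.p6, held 4 of the 9 genes. Each window is 300 bases and runs from 250 bases before the gene start to 50 bases from it, on the plus strand, which is the strand of the gene in all 4. All 4 available windows are shown. On the arrays the 4 genes gave 4 different patterns, and no link between sequence and pattern was tested. Selp rose with age, Icam1 was high in HSC at every age, Itga4 read above log2 5 in WBM only, and Itgb1 differed between its own probe sets. Capitals mark matches, on either strand, to an AP-1 site (TGANTCA), a GC box (GGGCGG), a PU.1 box (GAGGAA) and a TATA box (TATAAA).
Selp, chr1:164115014-164115313: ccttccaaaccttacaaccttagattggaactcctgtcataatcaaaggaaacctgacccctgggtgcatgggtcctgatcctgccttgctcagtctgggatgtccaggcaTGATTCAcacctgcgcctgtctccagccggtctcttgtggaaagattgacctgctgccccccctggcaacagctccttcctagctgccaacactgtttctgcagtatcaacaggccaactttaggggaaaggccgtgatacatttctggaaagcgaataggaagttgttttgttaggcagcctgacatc
Icam1, chr9:21015690-21015989: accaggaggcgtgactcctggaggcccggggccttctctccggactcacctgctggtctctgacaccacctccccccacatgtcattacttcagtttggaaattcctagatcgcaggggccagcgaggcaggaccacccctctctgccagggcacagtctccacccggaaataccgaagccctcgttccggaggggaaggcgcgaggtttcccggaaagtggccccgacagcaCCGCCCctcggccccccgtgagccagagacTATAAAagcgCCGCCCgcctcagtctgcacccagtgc
Itga4, chr2:79255176-79255475: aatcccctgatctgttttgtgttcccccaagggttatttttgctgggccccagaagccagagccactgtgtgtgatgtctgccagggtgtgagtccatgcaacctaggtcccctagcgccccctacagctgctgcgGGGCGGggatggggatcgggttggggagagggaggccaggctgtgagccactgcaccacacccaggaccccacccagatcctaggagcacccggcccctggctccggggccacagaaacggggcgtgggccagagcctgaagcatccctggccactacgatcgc
Itgb1, chr8:128685404-128685703: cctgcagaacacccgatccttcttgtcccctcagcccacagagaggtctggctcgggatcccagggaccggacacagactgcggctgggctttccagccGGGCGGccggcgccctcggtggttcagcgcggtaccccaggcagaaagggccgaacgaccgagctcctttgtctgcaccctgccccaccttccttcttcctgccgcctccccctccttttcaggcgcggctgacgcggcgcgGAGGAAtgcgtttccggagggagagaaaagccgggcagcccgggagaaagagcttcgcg
Counted from the first base of each window, the Selp window held 1 AP-1 match at bases 112 to 118, which reads as the motif on both strands. Of all 32851 windows in the table, 7.81% held such a match. The Icam1 window held GC boxes at bases 234 to 239 and 274 to 279, on the minus strand, and a TATA box at bases 264 to 269. The Itga4 window held a GC box at bases 137 to 142, and the Itgb1 window a GC box at bases 100 to 105 and a PU.1 box at bases 242 to 247. GC boxes were found in 35.7% of all windows, PU.1 boxes in 28.3% and TATA boxes in 13.6%. A strict NF-kB consensus of 10 bases, the GATA letters AGATAA and the ETS letters CGGAAG were searched too. They had no exact match in these 4 windows, against 8.46%, 11.2% and 16.9% of all windows. Sites that depart from these letters would not be found this way, so the lack of a match does not show that a window has no site. The Itgb1 window had the highest GC content of the 4, 67.3% with 27 CG pairs, and the Selp window the lowest, 51.7% with 4 CG pairs. A match is a description of the letters and was not tested as a site.

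Values are GC-RMA values on the log2 scale, which have no common unit between probe sets, so levels are compared only within a probe set. Of the 19 probe sets, 10 reached log2 5 on at least 2 of the 14 arrays, as did 49.2% of all probe sets, and these 10 covered 8 genes. The other 9 lay between 1.66 and 5.24. They include the only probe set of Itgal, which read between 2.01 and 2.08 on every array, WBM among them. Itgal, the alpha subunit of LFA-1, is therefore not described further. The remaining low probe sets are 2 of 3 for Vcam1, 2 of 3 for Itga4 and 4 of 6 for Itgb1. Of the 19, 6 had a range under 0.5 over all 14 arrays, as had 36.9% of all probe sets.

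Array medians lay between 3.93 and 4.10. The 2 WT arrays of 12 mo correlated at r = 0.968 over all probe sets, against 0.991 to 0.996 for the 2 arrays of each other group. The control probe set for the 5′ part of 18S ribosomal RNA read 10.91 and 10.88 at 2 mo, 11.19 and 8.28 at 6 mo, 4.66 and 9.68 at 12 mo, and 4.84 and 5.44 at 21 mo, so it was lower at 21 mo than at 2 mo and split the 12 mo arrays. By the test given below, 5 of 11 HSC markers measured were called higher in HSC of 2 mo than in WBM and 1 lower. Of all 12393 genes 1650 were higher and 1298 lower. Procr, the endothelial protein C receptor of HSC, averaged 12.89 in HSC of 2 mo and 4.27 in WBM. The marker called lower, Gfi1b, averaged 6.93 in HSC and 8.34 in WBM. Abcg2 was not called and read 10.9 and 11.1 in HSC and 12.5 and 12.3 in WBM. Alas2, an enzyme of heme synthesis in red cell precursors, averaged 1.47 in HSC of 2 mo and 13.67 in WBM. No probe set is named for Trp53 alone, so the targeted gene could not be checked on the p53 arrays.

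Selp, the gene of P-selectin, was the only one of the 9 whose change with age passed the test, and both of its probe sets did. Probe set 1420558_at read 5.86 and 5.85 at 2 mo, 8.57 and 7.48 at 6 mo, 9.37 and 10.47 at 12 mo, and 10.63 and 10.78 at 21 mo. The arrays of each age lay above all arrays of the age before. Probe set 1449906_at read 3.26 and 3.58 at 2 mo, 8.06 and 7.06 at 6 mo, 9.15 and 10.12 at 12 mo, and 10.15 and 11.12 at 21 mo. It too separated each age from the one before, starting from values under log2 5. Age was tested by limma with a quadratic trend over the 8 WT HSC arrays, on the 21 mo minus 2 mo contrast. A probe set was called at a Benjamini-Hochberg adjusted p under 0.05 over all 22626 probe sets and a change of at least 2-fold. On this contrast Selp rose by 4.80 (SE 0.43, 27.8-fold, adjusted p = 0.016) on 1420558_at and by 6.85 (SE 0.64, 115-fold, adjusted p = 0.017) on 1449906_at. The 95% intervals ran from 3.73 to 5.87 and from 5.26 to 8.43. The fold of 1449906_at rests on low readings at 2 mo. The 2 probe sets correlated at r = 0.956 over the 12 HSC arrays, and both come from the same hybridizations.

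**Figure D1:**
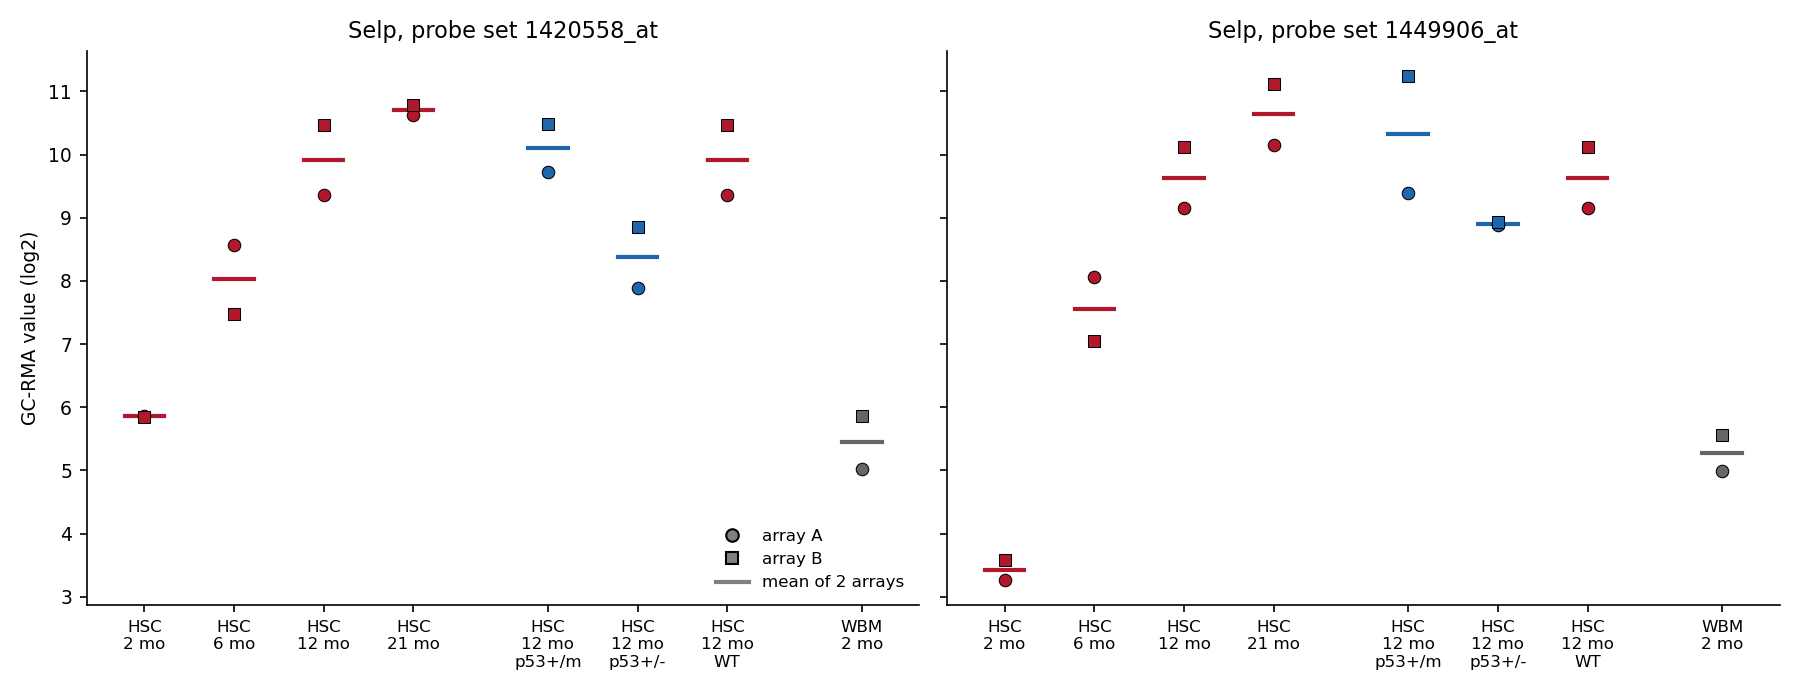
Log2 GC-RMA values of both Selp probe sets (vertical axis) in WT HSC by age, in HSC of 12 mo by genotype with the WT arrays of 12 mo drawn again beside the p53 arrays, and in WBM; circles are array A, squares array B and bars the mean of 2 arrays. In both panels the 4 ages form steps without overlap, and the p53+/- arrays lie below both WT arrays of 12 mo.

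Of all probe sets, 1.32% were called higher and 1.51% lower on this contrast, and of the 19 members 2 were called higher, both for Selp, and 0 lower. At an unadjusted p under 0.05 with the same 2-fold limit, 5 members were higher, against 6.66% of all probe sets higher and 6.56% lower. Without a 12 mo array, or without both, the 2 Selp probe sets stayed past the threshold, with adjusted p of 0.009 to 0.013. The call of 1420558_at was lost on leaving out any single array of 2 or 21 mo, and that of 1449906_at on leaving out either array of 2 mo or array B of 21 mo. The change stayed between 4.69 and 4.94 on 1420558_at and between 6.31 and 7.22 on 1449906_at, and the highest adjusted p was 0.080. The 18S 5′ signal moved the other way, with r = −0.69 and −0.67 to the 2 Selp probe sets over the 12 HSC arrays. Its part in the result was not tested.

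The trend of Selp was fitted as a quadratic, and its curvature was not tested. On 1420558_at it had an R squared of 0.958, reached its maximum of 10.78 at 18.8 mo, and stood midway between the 2 mo value and that maximum at 6.93 mo. On 1449906_at the maximum was 10.93 at 17.5 mo and the midpoint lay at 6.53 mo. No array lay between 12 and 21 mo. These maxima come from the fitted form and do not show that Selp peaked before 21 mo. The means of the arrays rose from 9.92 at 12 mo to 10.71 at 21 mo on 1420558_at. On 1449906_at they rose from 9.63 to 10.64. Group means gave the steps as 2.17 (SE 0.50) and 4.14 (SE 0.56) from 2 to 6 mo on the 2 probe sets, and as 2.68 and 3.08 from 6 to 21 mo. None of these 4 steps passed the threshold, with adjusted p of 0.740 and 0.326 for 6 minus 2 mo and of 0.113 and 0.108 for 21 minus 6 mo. In the first of these comparisons 0% of all probe sets were called higher and 0.00884% lower, and in the second 0.186% higher and 0.168% lower, with 0 of the 19 members in each. At an unadjusted p under 0.05 with 2-fold, 2 members were higher at 6 mo than at 2 mo, against 0.822% of all probe sets, and 4 at 21 mo than at 6 mo, against 3.87%. For 21 minus 6 mo without both 12 mo arrays, Selp 1420558_at passed (adjusted p = 0.047) and 1449906_at did not (adjusted p = 0.058). With the array letters as a block in the model neither passed (adjusted p = 0.197 and 0.177).

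Platelets and endothelium carry P-selectin, so markers of both were read beside it. Of 14 genes listed for megakaryocytes and platelets 10 were measured, and 0 were called with age in either direction. The log2 of their summed level was 12.80 and 12.85 at 2 mo, 13.47 on both arrays of 6 mo, 13.37 to 14.19 at 12 mo and 13.82 to 14.04 at 21 mo. Thus the sum was higher at 21 mo than at 2 mo, and most of it was Plek, a pleckstrin of hematopoietic cells, which read 13.88 and 13.57 at 21 mo and 12.53 and 12.54 at 2 mo. Pf4, platelet factor 4, read 9.21 and 7.98 at 21 mo and 9.56 and 8.29 at 2 mo. Vwf, von Willebrand factor, read 9.80 and 10.74 at 21 mo and 9.24 and 9.54 at 2 mo. Clec1b, the podoplanin receptor of platelets, read 6.60 and 6.66 at 21 mo and 4.13 and 3.96 at 2 mo, and Itga2b, the platelet integrin subunit that HSC express too, read 7.81 and 7.49 at 21 mo and 6.47 and 6.00 at 2 mo. Thus Plek, Vwf, Clec1b and Itga2b separated 21 mo from 2 mo upwards without a call, whereas Pf4 overlapped. Ppbp, which makes a platelet chemokine, stayed between 2.25 and 3.98 in HSC, against 10.20 and 11.57 in WBM. The platelet glycoprotein genes Gp9, Gp5 and Gp1bb read at most 1.86, 1.47 and 2.74 in HSC. In WBM, Gp9 read 1.88 and 1.89, Gp1bb 2.68 and 2.73, and Gp5 2.0 and 3.8. With Gp9 and Gp1bb as low in WBM, their low values in HSC do not show that platelet RNA was absent. Of 13 endothelial and stromal markers measured, 0 were called with age, and Cdh5 and Kdr, which define endothelium, read at most 2.36 and 2.34 on any array. In WBM, Cdh5 read 2.36 and 2.35 and Kdr 2.01 and 1.99. With both as low in WBM, their low values in HSC do not show that endothelial RNA was absent. Others of this list were higher at 21 mo than at 2 mo without overlap. Tek, the angiopoietin receptor, which also marks HSC, read 8.79 and 8.59 at 21 mo and 7.08 and 6.89 at 2 mo, Emcn, endomucin, read 5.81 and 5.31 at 21 mo and 3.91 and 4.67 at 2 mo, and Tie1 read 4.31 and 4.16 at 21 mo and 3.21 and 3.33 at 2 mo. The log2 summed level of the list was 8.88 and 8.91 at 2 mo and 9.43 to 9.56 at 21 mo. The part of these markers in the values of Selp was not tested.

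The 5 genes whose level was most like that of Selp 1420558_at over the 12 HSC arrays, among 8280 probe sets compared, were Clca3a1 (r = 0.964), Ptgs2 (r = 0.942), Jam2 (r = 0.937), Clu (r = 0.927) and Alcam (r = 0.915). The points share the arrays and the order of ages, so this is a description. Jam2 and Alcam are themselves adhesion molecules of the immunoglobulin superfamily. Ptgs2 is the inducible cyclooxygenase and Clu the secreted chaperone clusterin. Over the same arrays the other members tracked Selp less closely, with r from −0.60 for Icam2 to 0.69 for Itgb1 1452545_a_at.

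Selplg, the counter-receptor of P-selectin, showed no change with age past the test. Probe set 1449127_at read 9.02 and 8.89 at 2 mo, 8.88 and 9.67 at 6 mo, 10.23 and 9.11 at 12 mo, and 9.31 and 9.37 at 21 mo. The change with age was 0.42 (95% interval −0.53 to 1.36, adjusted p = 0.659).

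Icam1, a ligand of LFA-1, showed none either. It read 10.98 and 10.82 at 2 mo, 10.99 and 11.26 at 6 mo, 11.26 and 11.63 at 12 mo, and 10.86 and 11.24 at 21 mo. The arrays of 21 mo overlapped those of 2 mo, and the change was 0.19 (95% interval −0.25 to 0.63, adjusted p = 0.670). Under quantile normalization it was −0.01. Icam2, a further ligand of LFA-1, stood lower at the later ages, at 9.11 and 9.08 at 2 mo, 8.50 and 9.07 at 6 mo, 8.35 and 8.78 at 12 mo, and 8.45 and 8.18 at 21 mo. Both arrays of 21 mo lay below both of 2 mo, but the change of −0.75 (SE 0.21) missed the threshold on p (adjusted p = 0.116) and on fold. Vcam1, the ligand of VLA-4, scattered within ages, at 7.55 and 4.23 at 2 mo, 4.24 and 6.00 at 6 mo, 7.08 and 4.24 at 12 mo, and 8.01 and 6.86 at 21 mo on 1448162_at. Its change of 1.69 had a 95% interval of −1.64 to 5.02 and an adjusted p of 0.592.

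The integrin subunits Itgb1 and Itgb2 stood higher at 21 mo than at 2 mo without passing the test. Itgb1 encodes the beta subunit that VLA-4 shares with many receptors for matrix. Its probe set 1426918_at read 8.43 and 8.75 at 2 mo, 9.06 and 9.0 at 6 mo, 9.61 and 8.59 at 12 mo, and 10.05 and 10.48 at 21 mo. Both arrays of 21 mo lay above all others, with a change of 1.55 (SE 0.35, adjusted p = 0.074). Probe set 1452545_a_at read 4.17 and 4.14 at 2 mo, 4.78 and 5.37 at 6 mo, 7.03 and 4.63 at 12 mo, and 7.93 and 7.57 at 21 mo, with a change of 3.48 (SE 0.70, adjusted p = 0.059). Here the 12 mo arrays lay far apart, with A near the arrays of 21 mo and B near those of 6 mo. Most of both differences came after 6 mo, with 1.23 and 2.67 for 21 minus 6 mo (adjusted p = 0.243 and 0.240). Without both 12 mo arrays the 21 minus 2 mo changes passed the threshold, at 1.67 (adjusted p = 0.023) and 3.59 (adjusted p = 0.011). With the array letters as a block in the model they did not (adjusted p = 0.121 and 0.088). On leaving out single arrays they ran from 1.32 to 1.72 and from 3.27 to 3.73. The probe set 1452545_a_at also followed the 18S 5′ signal most closely of the members, with r = −0.92 over the 12 HSC arrays against −0.66 for 1426918_at. The part of that signal was not tested. The other 4 Itgb1 probe sets read between 1.66 and 4.49 on all arrays. Among them 1426919_at read 4.12 and 4.10 at 2 mo and 3.80 and 3.82 at 21 mo. Probe set 1426920_x_at read 4.10 and 4.09 at 2 mo and 3.99 and 4.02 at 21 mo. These 2 were thus slightly lower at 21 mo without overlap, at readings under log2 5. The 6 probe sets of this gene therefore differ among themselves.

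Itgb2, the beta subunit of LFA-1 and of other leukocyte integrins, read 7.10 and 6.82 at 2 mo, 6.61 and 7.10 at 6 mo, 8.14 and 6.85 at 12 mo, and 7.97 and 8.04 at 21 mo. The change was 1.16 (SE 0.41, adjusted p = 0.185), and it ran from 1.01 to 1.32 on leaving out single arrays. Without both 12 mo arrays it was 1.04 and missed the threshold (adjusted p = 0.056). With the array letters as a block in the model the adjusted p was 0.235. Of markers of mature myeloid cells, 2 of 12 for neutrophils and 3 of 10 for monocytes and macrophages were called higher at 21 mo. Of the 10, 1 was called lower. Of all 12393 genes 180 were called higher and 251 lower. Among the markers called higher, Lcn2, the neutrophil protein lipocalin 2, read 7.10 and 6.18 at 21 mo and 4.21 and 2.90 at 2 mo. Ly86, a monocyte and B cell surface protein, read 6.30 and 7.13 at 21 mo and 2.50 and 1.70 at 2 mo. The marker called lower, Irf8, read 3.52 and 3.70 at 21 mo and 5.18 and 5.57 at 2 mo. The neutrophil markers S100a8, S100a9, Ltf and Camp were among those that overlapped between these ages. The log2 summed level of the neutrophil list was 10.96 to 12.18 at 21 mo and 10.13 to 10.78 at 2 mo, and that of the monocyte list 11.76 to 11.86 at 21 mo and 10.94 to 10.97 at 2 mo. Their part in the values of Itgb1, Itgb2 and Vcam1 was not tested. Itga4, the alpha subunit of VLA-4, read 4.02 to 4.06 on every HSC array by 1421194_at, its highest probe set, so no change could be read for it.

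**Figure D2:**
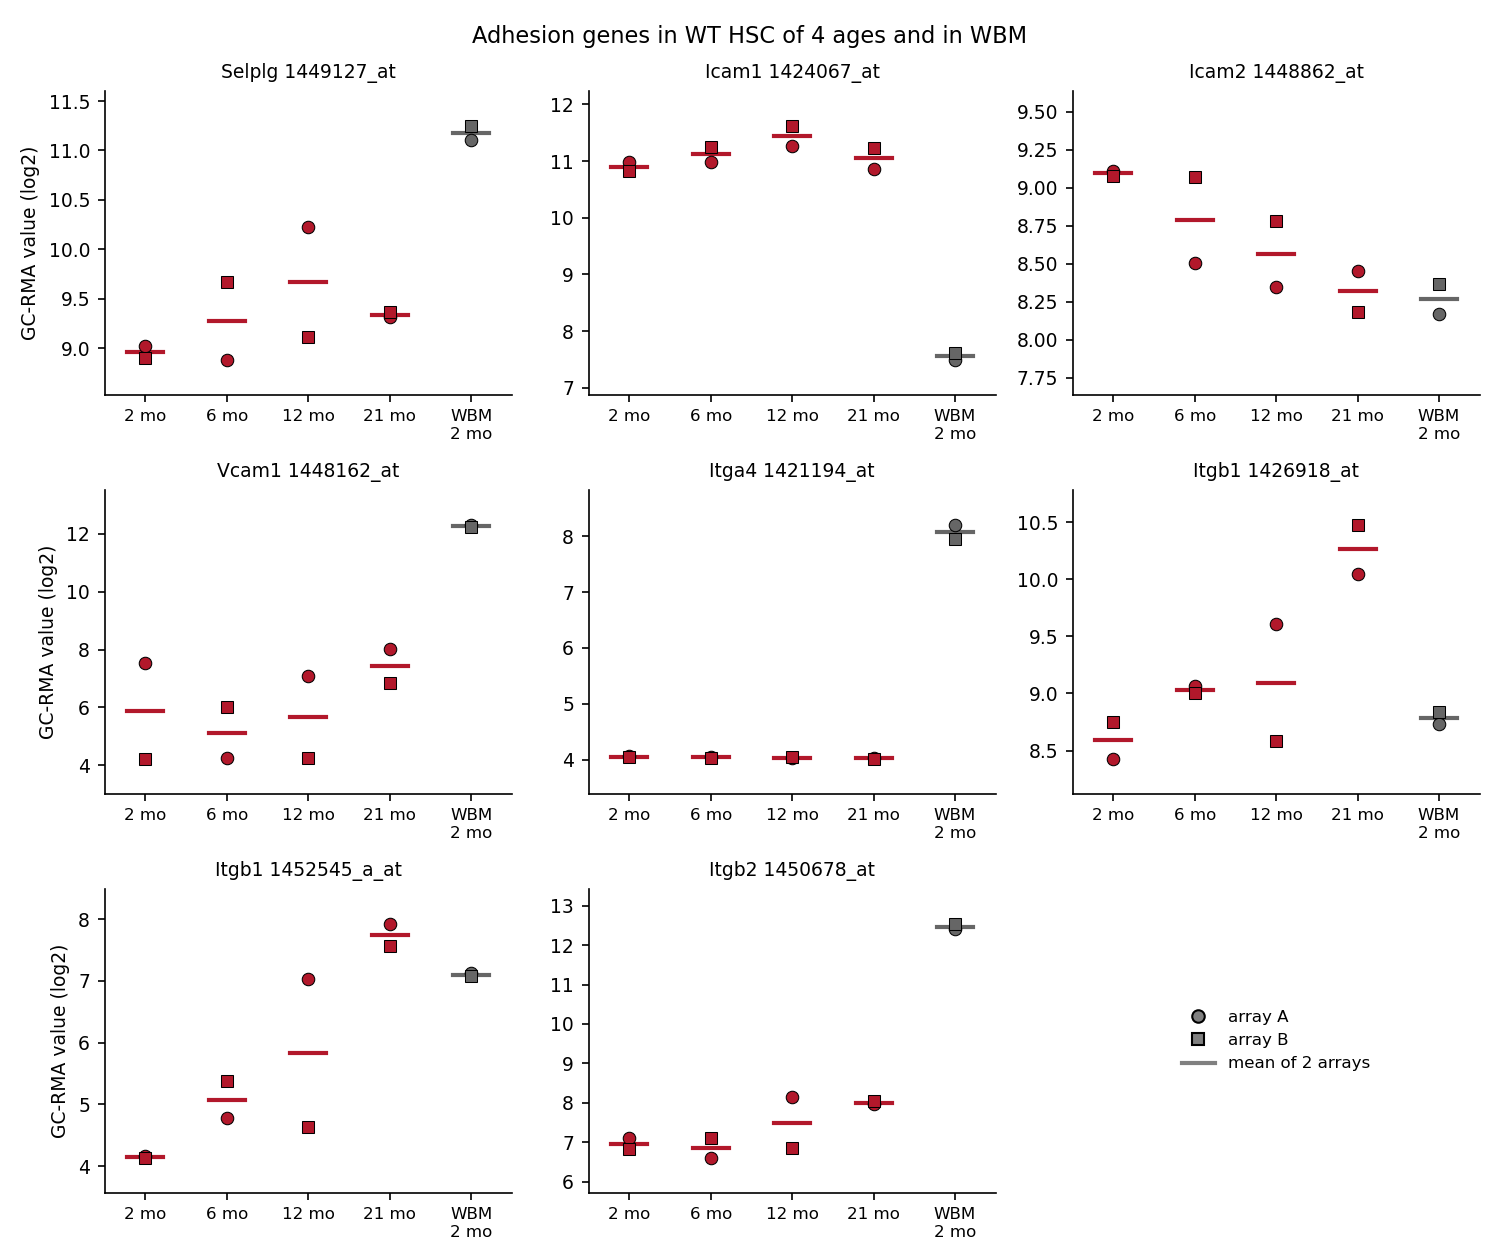
Log2 GC-RMA values (vertical axes, each probe set on its own scale) of the 8 detected probe sets other than Selp in WT HSC of 2, 6, 12 and 21 mo and in WBM of 2 mo; circles are array A, squares array B and bars the mean of 2 arrays. Icam1 lies above WBM at every age, while Selplg, Itga4, Itgb2 and Vcam1 lie below WBM at every age.

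HSC of 2 mo and WBM were compared by limma with group means over the 10 WT arrays, which asks which adhesion genes mark the stem cell against the marrow around it. Icam1 was the 1 member called higher in HSC, and 5 probe sets of 5 genes were called lower, for Selplg, Vcam1, Itga4, Itgb1 and Itgb2. Of all probe sets 11% were called higher and 9.69% lower, against 5.26% and 26.3% of the 19 members. At an unadjusted p under 0.05 with 2-fold, 1 member was higher and 6 were lower, against 13.2% and 11.7% of all probe sets.

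Icam1 read 10.98 and 10.82 in HSC, against 7.50 and 7.61 in WBM, a difference of 3.35 (SE 0.18, 10.2-fold, adjusted p = 9.7e-05). Icam2 read 9.11 and 9.08 in HSC, against 8.17 and 8.36 in WBM. Its difference of 0.83 (SE 0.23, adjusted p = 0.049) was under 2-fold and so not called. Both ligands of LFA-1 thus stood higher in HSC on every array, and LFA-1's beta subunit stood lower. Itgb2 read 7.10 and 6.82 in HSC, against 12.40 and 12.55 in WBM, a difference of −5.51 (SE 0.42, 45.7-fold, adjusted p = 3.6e-04).

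For VLA-4 and its ligand, 1 probe set each of Itga4, Vcam1 and Itgb1 was called lower in HSC, and the other probe sets of these genes were not. Itga4 1421194_at read 4.06 and 4.04 in HSC, against 8.21 and 7.96 in WBM, a difference of −4.03 (SE 0.08). With all HSC arrays under log2 5, the size of that difference depends on how the low reading was set, and whether these probe sets report the transcript of HSC could not be settled. Its other probe sets, 1427615_at and 1450155_at, read under 3.5 in both and showed no difference. Vcam1 1448162_at read 7.55 and 4.23 in HSC, against 12.32 and 12.25 in WBM, a difference of −6.40 (SE 1.42, adjusted p = 0.022), while its 2 other probe sets stayed low in both. Vcam1 in marrow is known from stromal and endothelial cells and macrophages. Of 13 endothelial and stromal markers measured, 1 was called higher in HSC and 3 lower, against 1650 and 1298 of all 12393 genes. The marker called higher was Tek, at 6.99 in HSC and 4.65 in WBM on average. Cxcl12, among those lower, averaged 6.82 in HSC and 10.64 in WBM. The part of these cells in the Vcam1 values was not tested. Itgb1 1452545_a_at read 4.17 and 4.14 in HSC, against 7.13 and 7.08 in WBM (−2.95, SE 0.73, adjusted p = 0.033). By 1426918_at, however, Itgb1 read 8.43 and 8.75 in HSC and 8.73 and 8.84 in WBM, and the difference of −0.19 had an interval of −1.03 to 0.65. The call for this gene thus rests on 1 of its 6 probe sets.

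Selplg read 9.02 and 8.89 in HSC, against 11.11 and 11.25 in WBM, a difference of −2.22 (SE 0.40, 4.66-fold, adjusted p = 0.011). For Selp the probe sets differed. By 1420558_at it read 5.86 and 5.85 in HSC, against 5.03 and 5.87 in WBM, and the groups overlapped (0.41, interval −0.86 to 1.68). By 1449906_at it read 3.26 and 3.58 in HSC, against 4.99 and 5.57 in WBM (−1.86, SE 0.53, adjusted p = 0.055). HSC of 6, 12 and 21 mo read above both WBM arrays on both probe sets, but no older WBM was measured. Neutrophil markers summed to a log2 level of 10.13 to 10.78 in HSC of 2 mo and 17.38 to 17.46 in WBM, and all 12 were called lower in HSC. Monocyte markers summed to 10.94 to 10.97 in HSC and 15.13 to 15.16 in WBM. The part of these cells in the WBM values of Itgb2, Itga4 and Selplg was not tested. Without 2 mo B, WBM A or WBM B the calls for Selplg, Vcam1 and Itgb1 were lost, and 3 members stayed called, Icam1, Itga4 and Itgb2. The calls for Selplg and Itgb1 were lost without 2 mo A too, that for Itgb1 also without any single array of 6 or 21 mo, and that for Vcam1 with only the 4 arrays of 2 mo in the model (adjusted p up to 0.061 for Selplg, 0.137 for Itgb1 and 0.102 for Vcam1).

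**Figure D3:**
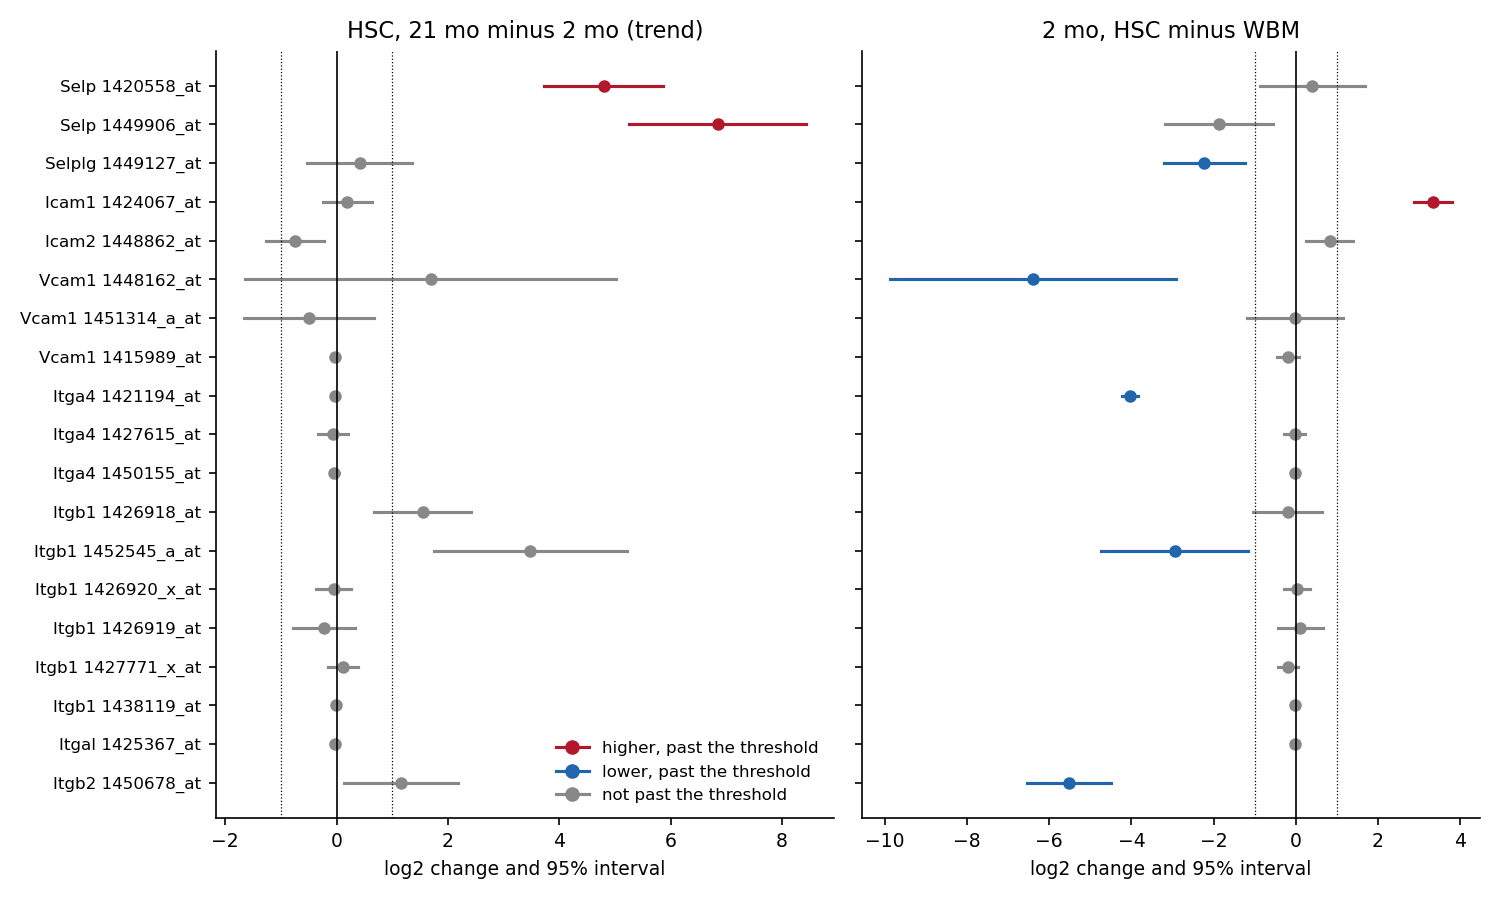
Log2 change (points) with its 95% interval (lines) of all 19 probe sets, on the left for WT HSC of 21 mo minus 2 mo from the trend and on the right for HSC minus WBM at 2 mo; red and blue mark probe sets past the threshold and dotted lines mark 2-fold. The 2 Selp probe sets stand apart on the left, at 4.80 and 6.85, and Icam1 is the only red point on the right, at 3.35.

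HSC of 12 mo were then compared between genotypes, by limma with group means over the 12 HSC arrays. None of the 19 members passed the threshold. For p53+/m minus p53+/- 0.084% of all probe sets were called higher and 0.11% lower, for p53+/m minus WT 0.208% and 0.239%, and for p53+/- minus WT 0.0796% and 0.084%. The comparisons with WT share the WT arrays of 12 mo, and those of p53+/m share its arrays, so they are not independent. At an unadjusted p under 0.05 with 2-fold, Selp 1420558_at was the 1 member higher in p53+/m than in p53+/- and the 1 member lower in p53+/- than in WT, against 1.7% and 1.81% of all probe sets.

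Selp 1420558_at read 9.73 and 10.48 in p53+/m HSC, 7.89 and 8.86 in p53+/- HSC and 9.37 and 10.47 in WT HSC. The p53+/- arrays lay below all 4 others. The difference of p53+/m to p53+/- was 1.73 (SE 0.53, interval 0.46 to 3.0, adjusted p = 0.313), that of p53+/- to WT −1.54 (SE 0.53, adjusted p = 0.450), and that of p53+/m to WT 0.19 (interval −1.08 to 1.45). Probe set 1449906_at read 9.40 and 11.25 in p53+/m HSC, 8.89 and 8.93 in p53+/- HSC and 9.15 and 10.12 in WT HSC, in the same order. Here p53+/m differed from p53+/- by 1.42 (interval −0.20 to 3.04, adjusted p = 0.639). Of 12 neutrophil markers 0 had a higher mean in p53+/- than in WT, and 0 passed the test. Of all 12393 genes 4239 had a higher mean in p53+/-, with differences of any size counted. Other lists gave 1 of 10 for megakaryocytes and platelets, 1 of 9 for the B lineage and 7 of 13 for endothelium and stroma. The neutrophil markers had a log2 summed level of 8.99 and 10.52 in p53+/m HSC, 9.28 and 8.67 in p53+/- HSC and 10.21 and 11.08 in WT HSC. S100a8, a calcium-binding protein of neutrophils, read 6.59 and 8.47 in p53+/m HSC, 4.12 and 4.13 in p53+/- HSC and 6.82 and 9.81 in WT HSC. The megakaryocyte and platelet markers summed to 13.17 and 13.26 in p53+/m HSC, 13.84 and 13.46 in p53+/- HSC and 14.19 and 13.37 in WT HSC. The part of these markers in the values of Selp was not tested.

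Read against the WT age trend of 1420558_at, the mean Selp level of p53+/m HSC matched an age of 12.6 mo, that of p53+/- HSC 7.02 mo and that of WT HSC 11.8 mo. By 1449906_at the ages were 13.0 mo for p53+/m, 9.27 mo for p53+/- and 10.9 mo for WT. Single arrays spread from 11.03 to 14.66 mo in p53+/m, from 5.88 to 8.27 mo in p53+/- and from 9.78 to 14.6 mo in WT on 1420558_at. The ranges of p53+/m and WT thus overlapped on this probe set, and that of p53+/- lay below both. Array B of p53+/m lay above the maximum of the trend on 1449906_at and had no age. These ages are a description of single probe sets and were not tested.

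Icam1 read 11.49 and 11.57 in p53+/m HSC, 12.55 and 11.81 in p53+/- HSC and 11.26 and 11.63 in WT HSC. Its p53+/- arrays were the highest of the 6, the reverse of Selp, with −0.65 (SE 0.26, adjusted p = 0.496) for p53+/m minus p53+/- and 0.73 (SE 0.26, adjusted p = 0.476) for p53+/- minus WT. Itgb1 1426918_at read 9.15 and 9.01 in p53+/m HSC, 9.99 and 9.74 in p53+/- HSC and 9.61 and 8.59 in WT HSC. It too was highest in p53+/-, with −0.79 (SE 0.32, adjusted p = 0.506) for p53+/m minus p53+/-, and by 1452545_a_at the difference was −0.16 with overlapping arrays. Selplg read 9.25 and 8.97 in p53+/m HSC, 9.83 and 9.72 in p53+/- HSC and 10.23 and 9.11 in WT HSC. Vcam1 was at its lowest in p53+/m HSC, with 3.69 on both arrays, against 4.42 and 3.93 in p53+/- HSC and 7.08 and 4.24 in WT HSC. The WT arrays differed from each other by more than the genotypes did for both genes. Icam2 stayed between 8.05 and 8.78 and Itgb2 between 6.78 and 8.14 over the 3 genotypes. Without 12 mo A, both detected Itgb1 probe sets were called higher in p53+/- than in WT and 1452545_a_at was called higher in p53+/m than in WT. The 18S 5′ signal was 5.71 and 7.18 in p53+/m HSC, 8.92 and 7.96 in p53+/- HSC and 4.66 and 9.68 in WT HSC, and its part was not tested.

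**Figure D4:**
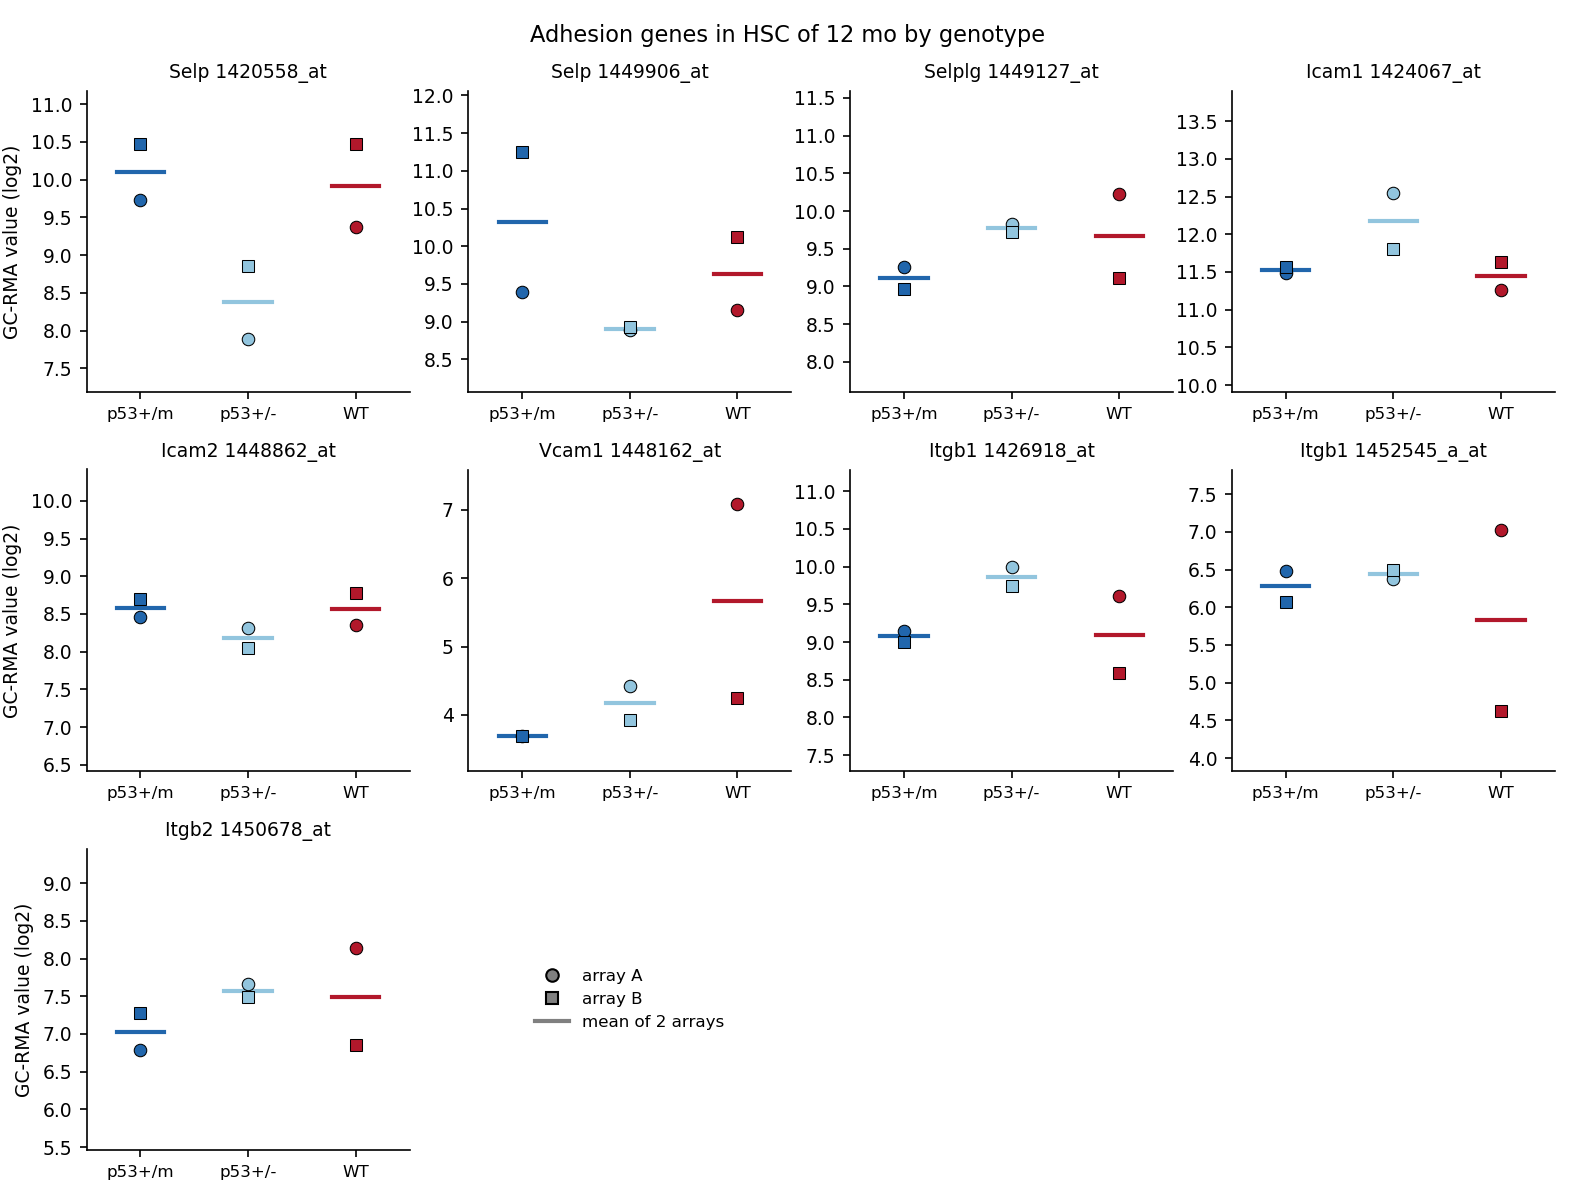
Log2 GC-RMA values (vertical axes, each spanning 4 log2 units) of the 9 probe sets detected in HSC, in HSC of 12 mo from p53+/m, p53+/- and WT mice; circles are array A, squares array B and bars the mean of 2 arrays. Selp is lowest and Icam1 highest in p53+/-, and none of these differences passed the threshold.

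Other adhesion genes were read in 4 lists, with a gene taken on whichever probe set averaged highest in WT HSC. With age, 180 genes of 12393 were called higher and 251 lower. Of 20 other adhesion receptors and ligands measured 3 were called higher and 0 lower, with a median change of 0.07 against −0.02 over all genes. Jam2, a junctional adhesion molecule, read 9.53 and 10.24 at 21 mo and 7.07 and 7.73 at 2 mo (2.60, SE 0.47, adjusted p = 0.047). Alcam, the activated leukocyte adhesion molecule, read 11.12 and 11.51 at 21 mo and 8.80 and 8.86 at 2 mo (2.42, SE 0.27, adjusted p = 0.020). Podxl, a sialomucin related to CD34, read 7.92 and 7.70 at 21 mo and 5.82 and 6.64 at 2 mo (1.60, SE 0.24, adjusted p = 0.034). None of these groups of arrays overlapped.

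Of 12 measured genes for the other selectins and for enzymes that decorate selectin ligands, 0 were called with age. Sele, the endothelial selectin, read under log2 5 on every array. Of 17 other integrin subunits measured 0 were called higher and 1 lower, Itgb5, at 3.23 and 3.26 at 21 mo and 4.99 and 5.25 at 2 mo (−1.80, SE 0.25, adjusted p = 0.031). Itgb5 reached log2 5 on only 1 array, so this change rests on low readings. Of 18 genes of integrin activation measured 1 was called higher and 0 lower, and their median change was 0.60. That gene was Fyb, an adaptor that couples immune receptors to integrins, at 9.33 and 9.42 at 21 mo and 8.13 and 7.38 at 2 mo (1.58, SE 0.22, adjusted p = 0.029). The calls of Jam2, Alcam, Podxl, Itgb5 and Fyb all depended on either array of 21 mo, on array A of 2 mo and on array B of 6 mo, any of which ended the call when left out, with adjusted p up to 0.200 for Jam2, 0.091 for Alcam, 0.135 for Podxl, 0.128 for Itgb5 and 0.129 for Fyb. That of Jam2 was lost under quantile normalization too, and those of Jam2, Podxl, Itgb5 and Fyb with group means in place of the trend. Leaving out array B of 2 mo also ended the calls of Jam2, Alcam and Itgb5, leaving out array A of 6 mo those of Jam2, Podxl and Fyb, and leaving out both 12 mo arrays those of Jam2 and Podxl. These lists were read with the earlier results known and no test was made over a list.

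Against WBM, 1650 genes were called higher in HSC and 1298 lower. Of the 12 genes of selectins and their ligands 2 were higher and 2 lower. Gcnt1, which builds the branched sugar cores that selectins bind, averaged 8.02 in HSC and 5.82 in WBM (2.20, SE 0.12), and Tpst2, a sulfotransferase for tyrosines such as those of PSGL-1, averaged 7.0 in HSC and 5.81 in WBM (1.19, SE 0.16). St3gal6, a sialyltransferase of selectin ligands, averaged 3.58 in HSC and 8.06 in WBM (−4.48, SE 0.37), and B4galt1, a galactosyltransferase, averaged 8.24 in HSC and 9.81 in WBM (−1.57, SE 0.30). Enzymes of one pathway thus differed in direction.

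Of the 17 other integrin subunits 3 were higher in HSC and 2 lower. Itga3, a subunit of a laminin receptor, averaged 5.82 in HSC and 2.65 in WBM (3.16, SE 0.15), Itgav, the alpha subunit of receptors for vitronectin, averaged 11.69 in HSC and 9.22 in WBM (2.47, SE 0.35), and Itgb5, which pairs with it, averaged 5.12 in HSC and 3.44 in WBM (1.67, SE 0.25). Itgb7, a partner of Itga4 in lymphocytes, averaged 6.11 in HSC and 7.51 in WBM (−1.40, SE 0.13), and Itgax, a subunit of dendritic and myeloid cells, averaged 2.05 in HSC and 3.29 in WBM (−1.24, SE 0.19). The genes higher in HSC thus encode receptors for matrix, and those lower encode subunits of leukocytes, for these 5 genes. Itgax, however, stayed under log2 5 on every array and Itgb5 reached it on only 1, so these 2 differences rest on low readings.

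Of the 18 genes of integrin activation 2 were higher in HSC and 4 lower. Rasgrp2, an exchange factor for the small GTPase Rap1, averaged 9.17 in HSC and 7.30 in WBM (1.87, SE 0.24), and Fermt3, the kindlin of blood cells, averaged 11.40 in HSC and 9.99 in WBM (1.42, SE 0.35). Fyb averaged 7.76 in HSC and 10.20 in WBM (−2.44, SE 0.24), Rassf5, a Rap1 effector, averaged 9.64 in HSC and 11.59 in WBM (−1.96, SE 0.46), Rap1b averaged 12.42 in HSC and 13.95 in WBM (−1.53, SE 0.34), and Vcl, vinculin, averaged 11.46 in HSC and 12.62 in WBM (−1.16, SE 0.16). Among other adhesion receptors and ligands 4 were higher and 4 lower of 20. Those higher were Jam2 (4.40, SE 0.47), Esam (4.04, SE 0.30), Cd34 (3.20, SE 0.67) and Podxl (1.73, SE 0.28), all surface molecules also found on endothelium. Those lower were Icam4 (−4.07, SE 0.32), an ICAM of red cells, the matrix gene Fn1 (−4.02, SE 0.72), the chemokine gene Cxcl12 (−3.82, SE 0.47) and Cd47 (−1.44, SE 0.34). Without WBM A the calls of B4galt1, Itgax, Fermt3, Rassf5, Rap1b, Cd34, Fn1 and Cd47 were lost, and without WBM B all of these but that of Itgax. Those of B4galt1, Fermt3, Rap1b, Cd34 and Cd47 were also lost without either HSC array of 2 mo, and that of Fn1 without 2 mo A. Leaving out any single array of 21 mo ended those of Fermt3, Rassf5 and Cd47, and any of 6 mo that of Fermt3. Quantile normalization ended that of Cd47 (adjusted p = 0.0503). With only the 4 arrays of 2 mo in the model, Itgax, Rassf5 and Podxl were not called (adjusted p = 0.059, 0.135 and 0.062).

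Between the genotypes 0 genes of the 4 lists were called for p53+/m minus p53+/-. Against WT of 12 mo the 1 gene called was Cxcr4, the receptor for CXCL12 that holds HSC in the marrow, which is named here after its values were seen. It read 5.73 and 5.97 in p53+/m HSC, 7.02 and 7.44 in p53+/- HSC and 9.67 and 9.48 in WT HSC. It was lower in both, with a difference to WT of −3.73 (SE 0.24, adjusted p = 0.004) for p53+/m and of −2.34 (SE 0.24, adjusted p = 0.024) for p53+/-, both against the same WT arrays. Since the p53 mice were back-crossed, genotype and remaining strain background cannot be told apart here. With only the 6 HSC arrays of 12 mo in the model both calls were lost (adjusted p = 0.125 and 0.191). That of p53+/- was also lost without any single array of 2 mo, 21 mo or p53+/m (adjusted p up to 0.080). In WT HSC of all ages it stayed between 9.35 and 10.04.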

How the data were processed

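RNA was hybridized to Affymetrix MOE430A arrays and the images were read with MAS 5.0. The authors deposited GC-RMA values, which are background-corrected by probe sequence, normalized and given on the log2 scale. The file holds 22626 probe sets beside 64 for controls. Which GCRMA release was used, and whether the 14 arrays were processed together, is not given in the sources used here. Values were used as deposited, with no filter. GC-RMA gives no detection call, and log2 5 serves as a reading aid only. Of the probe sets 20380 carry 1 symbol, 691 several and 1555 none.

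The tests, run in R 4.3.3, used the functions lmFit and eBayes of limma 3.58.1 over all 22626 probe sets, with Benjamini-Hochberg adjustment. Calls needed an adjusted p under 0.05 and 2-fold. Age was fitted as a quadratic trend over 8 WT HSC arrays, and other comparisons as group means. The procedure was tested on simulated data. Members and gene lists were chosen with earlier results of these data known. All 9 members are named with all probe sets. From the 4 further lists, up to 4 genes a direction past the threshold are named for age and for HSC against WBM, by size of change, with the 5 genes most like Selp and the marker genes that stand beside a result. The marker lists cover megakaryocytes and platelets, endothelium and stroma, neutrophils, monocytes and macrophages, T and NK cells, B lineage, erythroid cells and HSC. With age, 0 of 9 T and NK cell markers were called, 1 of 9 B lineage markers was lower, 0 of 8 erythroid markers were called and 1 of 11 HSC markers was higher. Alternatives left out each array or both 12 mo arrays, changed normalization, filter, threshold, trend form, block, arrays in the model and probe sets of a gene. The number of arrays limits the precision.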

Additional observations from a re-analysis of the deposited data

How the results depend on the processing

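The count of members past the threshold was computed under 15 to 19 alternatives for each comparison. With age the count of 2 became 4 with probe sets under log2 5 left out, 4 without both 12 mo arrays (the added calls being the 2 detected Itgb1 probe sets in both cases) and 1 with 1 probe set a gene, and ran from 0 to 4 on leaving out single arrays. For 21 minus 6 mo the count of 0 became 2 with the filter, 2 without both 12 mo arrays and 2 with all 14 arrays in the model, and ran from 0 to 2 on leaving out single arrays. For HSC minus WBM the count of 6 ran from 3 to 7 on leaving out single arrays. For p53+/m minus WT it ran from 0 to 1 and for p53+/- minus WT from 0 to 2, the higher counts without 12 mo A. For 6 minus 2 mo and p53+/m minus p53+/- it was 0 under all alternatives run. The cause of these shifts was not tested, beyond the smaller number of probe sets tested under the filter and with 1 probe set a gene.

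Direction changed for few values, none of them called. The change of Icam1 with age was −0.0147 under quantile normalization. On leaving out single arrays Selp 1420558_at ran from −0.00933 to 0.83 for HSC minus WBM and from −0.36 to 0.74 for p53+/m minus WT, Selp 1449906_at from −0.24 to 1.61 for p53+/m minus WT, and Itgb1 1452545_a_at from −0.36 to 0.045 for p53+/m minus p53+/-.

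No pairing by the array letters was evident. Differences of A minus B correlated between groups at −0.31 to 0.16 over 21 pairs of groups, with a median of −0.03. A shared effect that is weak or varies in sign could be missed this way. With a replicate block the counts of members were 2 for age, 6 for HSC minus WBM and 0 in the other comparisons, and the adjusted p of both Selp probe sets for age was 0.038. It changed no call of a member, but ended the age calls of Jam2 (adjusted p = 0.081), Podxl (adjusted p = 0.061) and Fyb (adjusted p = 0.052). With 2 arrays a group, and members read near the lower end of the scale on 9 of 19 probe sets, changes of these 9 could not be read.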
